A study of Mus musculus with 4 samples.

Results

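The genes described are 10 members of the Notch pathway among the 32286 gene rows of the matrices: the receptors Notch1 and Notch2, the ligands Dll1, Dll3, Jag1 and Jag2, the receptor-modifying glycosyltransferase Mfng, and the Hes family transcription factors Hes1, Hes5 and Hes6. They were taken by name, all 10 were in the files, and each was followed across marker-defined cell types and both genotypes. Single cells positive for the tdTomato reporter were sorted from mouse cerebella at E15.5 and sequenced with 10x 3' chemistry. The 2 control libraries came from embryos carrying Ptf1aCre/+ and R26LSL-tdT/+. The 2 En1/2 CKO libraries, called mutants here, carried the same Cre and reporter together with En1lox/lox and En2lox/lox. Cre was driven from Ptf1a, a transcription factor of cerebellar GABAergic progenitors, so the floxed Engrailed genes and the reporter were recombined in that lineage and not in the whole cerebellum. Cerebella were pooled before dissociation, the number of embryos per pool is not given, and p-values here measure only the spread between pooled libraries.

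Notch receptors are activated by Delta or Jagged ligands on a neighbouring cell, after which the cleaved intracellular domain enters the nucleus and, with the DNA-binding protein RBPJ, switches on Hes genes. Hes1 and Hes5 encode repressors of proneural genes and of Delta ligands, so a progenitor receiving the signal stays undifferentiated while its ligand-bearing neighbour proceeds to become a neuron. In the embryonic cerebellum this lateral inhibition operates in the ventricular zone, where GABAergic neurons are born, and in radial glia.

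Promoter sequence was available for 8 of the 10 members in RefSeq GRCm38.p6, with none for Mfng and Hes1. The 250 bases before each of 10 start sites were searched on both strands for the RBPJ core TGGGAA and for the E-box CANNTG, the kind of site bound by proneural factors. These 3 windows are printed because they set the Notch effector Hes5 beside a ligand and an effector with a different distribution over cell types. Hes5 lies on chr4:154960923-154962371 on the plus strand, and its window is chr4:154960673-154960922. The Dll1 window is chr17:15376933-15377182 and the Hes6 window is chr1:91414039-91414288, both on the minus strand. Capitals mark TGGGAA or its reverse complement in Hes5 and the E-boxes in the other windows, all written 5′ to 3′ towards the start site.
Hes5: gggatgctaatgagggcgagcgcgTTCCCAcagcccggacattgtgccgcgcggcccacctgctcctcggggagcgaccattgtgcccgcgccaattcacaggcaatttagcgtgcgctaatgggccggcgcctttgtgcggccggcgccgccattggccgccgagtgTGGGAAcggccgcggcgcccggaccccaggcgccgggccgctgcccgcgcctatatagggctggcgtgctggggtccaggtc
Dll1: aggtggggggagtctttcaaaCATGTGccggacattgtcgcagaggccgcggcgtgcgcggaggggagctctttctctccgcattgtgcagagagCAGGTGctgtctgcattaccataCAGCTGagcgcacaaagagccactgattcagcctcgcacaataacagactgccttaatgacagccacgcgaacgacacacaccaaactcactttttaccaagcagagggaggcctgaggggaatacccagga
Hes6: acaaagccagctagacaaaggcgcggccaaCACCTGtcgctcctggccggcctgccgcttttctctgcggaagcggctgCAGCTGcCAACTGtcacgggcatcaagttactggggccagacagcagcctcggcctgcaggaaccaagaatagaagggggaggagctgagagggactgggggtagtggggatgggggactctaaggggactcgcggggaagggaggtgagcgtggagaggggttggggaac
Among the 8 members searched, which leave out Hes1 and Mfng, only Hes5 had the RBPJ core. It held the core at 226 to 221 bases before the start on the minus strand and at 82 to 77 bases before it on the plus strand. Both lay within the longer match GTGGGAA. The core occurred in 21.59% of 32851 promoter windows and 2 or more copies of the longer match in 0.16%. Dll1 and Hes6 each held 3 E-boxes in the printed windows, which are those nearest to the annotated gene starts, and the window of the other start listed for each gene held 1. At least 1 E-box was found in 66.22% of all windows and 3 or more in 12.21%. Some windows that are not printed overlapped exons of their own gene, with all 250 bases for Dll3 and Jag2 and 124 for Jag1. The Notch1 start used lay 12841 bases from its annotated gene start. For these members the lack of a core may not describe the main promoter. A match is a string of letters and not a measured binding site.

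The libraries held 5305154 to 21021428 UMIs, which are single counted transcripts, and 22851 cells were kept. Control 2 stood apart: 1171 of its 4619 barcodes were kept after filtering and doublet removal, against 4893 to 9487 kept in each of the other libraries, and the median mitochondrial share over all its barcodes was 13.4%. Control 1 also differed from the rest, with Malat1 at 84964 CPM (a gene's share of a library's UMIs, scaled to 1000000) against 31391 to 33649 in the others. In the sum of all cells, haemoglobin transcripts ranged from 57.7 CPM in control 2 to 6132 CPM in control 1. Of the targeted genes, En2 stood at 103 and 49 CPM in controls against 30 and 15 CPM in mutants, whereas En1 stood at 110 and 78 CPM in controls against 70 and 63 CPM in mutants. Whether the counted 3' tags lie in the deleted parts is not given in the sources used here. Any 2 libraries shared 10 to 32 cell barcodes. Clusters with microglia, granule lineage or choroid plexus markers were present in the sort, and TdTom transcripts were at 452 to 1193 CPM in the microglia-like cluster 16 and at 456 to 670 CPM in all cells.

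Clusters were found without any Notch pathway gene and named from marker lists, with 14 types holding at least 20 cells in every library. Levels by type are given as CPM of summed counts and are descriptions without a test, because types were cut from the same cells. Radial progenitor-like cells expressed Sox2, Slc1a3 and Gdf10, and cluster 13 held dividing cells with the same progenitor markers. Intermediate progenitor-like cells fell into cluster 5, led by Ptf1a, Neurog2 and Gadd45g among others, and cluster 11, led by Neurog1, Nhlh1, Prdm13, Lhx5 and Lhx1. Cluster 14 held dividing cells with neuronal transcripts, clusters 2 and 6 were unnamed young neurons, and cluster 4 was led by haemoglobin and left unnamed. Purkinje-like cells carried Foxp2, although the Purkinje marker Skor2 was at 15.9 CPM or lower in every library and at 0 in the 39 such cells of control 2. Astroglia-like, oligodendrocyte lineage-like, granule lineage-like and interneuron-like cells and the microglia-like cluster 16 made up the remaining types. Orders of levels below cover these 14 types only. Endothelium-like cells were left out, with 18 cells in all and none in control 2. Pooled over libraries they held Notch1 at 235 CPM (19 UMIs, exact Poisson 95% interval 142 to 367) and Hes1 at 248 CPM (20 UMIs, 151 to 382). Jag2 and Mfng were each at 111 CPM there (9 UMIs, 50.9 to 211), above the mean of every type compared.

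**Figure D1:**
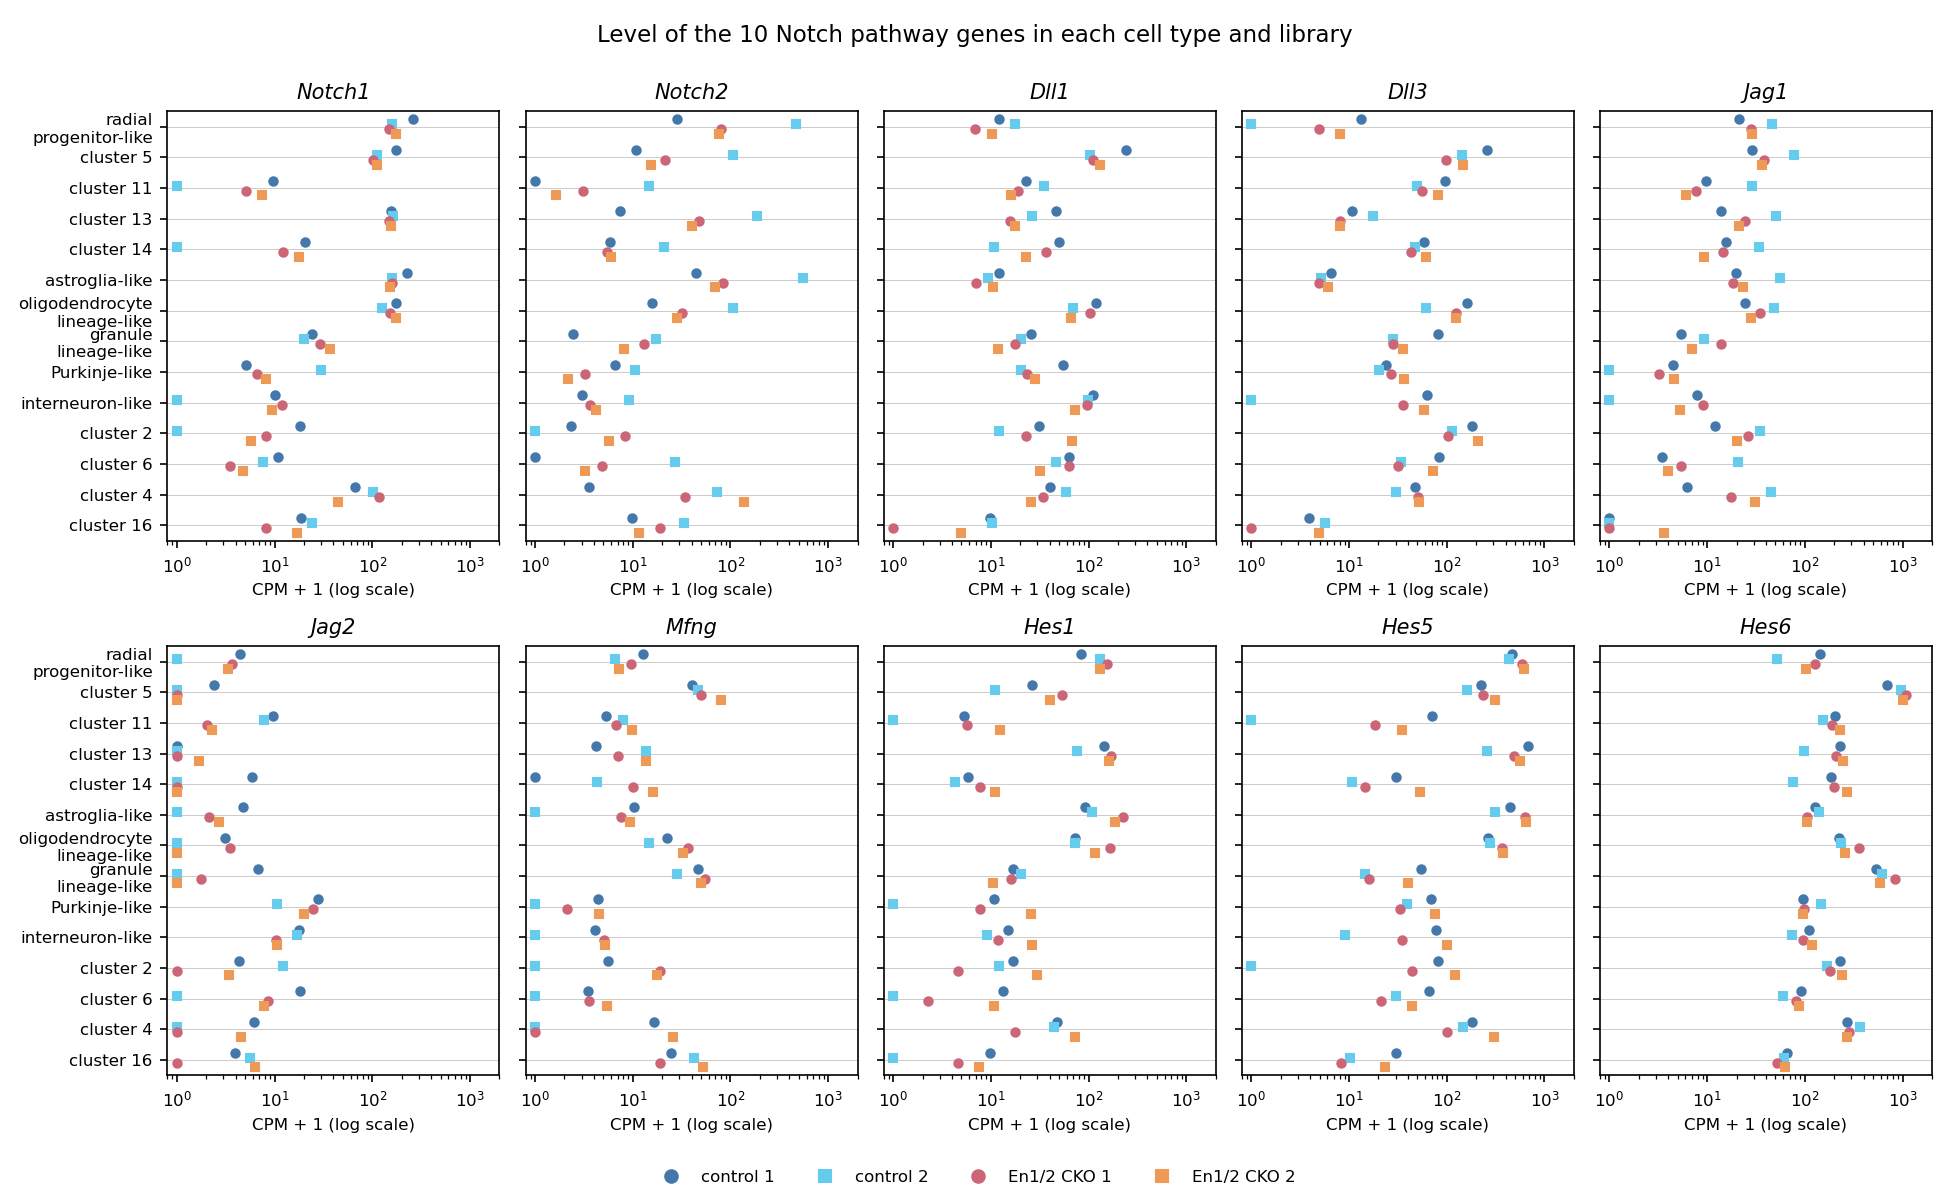
Level of each of the 10 genes in 14 cell types, in CPM of summed UMI counts, with 1 point per library coloured by genotype. Notch1, Hes1 and Hes5 are high in radial progenitor-like, astroglia-like, oligodendrocyte lineage-like and cluster 13 cells, whereas Dll1, Dll3, Mfng and Hes6 are highest in cluster 5.

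Notch1, the main receptor of the ventricular zone, lies on chr2:26457903-26516663 on the minus strand and was highest in progenitors and glia. Its mean level was 185 ± 51.5 CPM (SD, n = 4) in radial progenitor-like cells, 172 ± 34 CPM in astroglia-like cells, 155 ± 23.8 CPM in oligodendrocyte lineage-like cells, 154 ± 6.75 CPM in cluster 13 and 124 ± 34.1 CPM in cluster 5. These 5 types overlapped in range with their neighbours in the order. Below cluster 4, at 81.3 CPM, the ranges separated: the granule lineage-like cells came next at 26.6 CPM, and interneuron-like and Purkinje-like cells were at 7.1 and 11.4 CPM. The step within the intermediate progenitors was large, with Notch1 at 175, 111, 100 and 110 CPM in cluster 5 and at 8.7, 0, 4.15 and 6.35 CPM in cluster 11 (control 1, control 2, mutant 1 and mutant 2, the order used throughout). Every library placed cluster 5 above cluster 11. Over the 14 types and 10176 genes, the genes whose log2(CPM + 10) followed Notch1 most closely were Sipa1l1 (Pearson r = 0.97), Pdpn (0.96) and Sox9 (0.96), a description of points that share libraries and depth.

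Notch2, a receptor used widely in glia and in non-neural cells, lies on chr3:98013527-98150361 on the plus strand, and its values were dominated by 1 library. In radial progenitor-like cells it stood at 27.6 and 472 CPM in controls against 79.8 and 75.5 CPM in mutants, and in astroglia-like cells at 43.1 and 546 CPM against 82.8 and 68.8 CPM. Control 2 was highest in both types, control 1 was lowest, and the mutants lay between them. The same order held in all cells, with 7.91, 120, 33.8 and 36.8 CPM. Spry2, a feedback inhibitor of receptor tyrosine kinases, was also highest in control 2 in radial progenitor-like cells, with 24.8, 236, 61.3 and 41.2 CPM. Astroglia-like cells ranked first for Notch2 at 185 ± 241 CPM (SD, n = 4), and the SD over libraries exceeded this mean. Its closest genes over types were Lrp4, Tmem167 and Gsap, each with r = 0.96.

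Dll1, the ligand that activates Notch on adjacent progenitors, lies on chr17:15367354-15376872 on the minus strand and was highest in the intermediate progenitor-like cluster 5. It stood there at 238, 101, 110 and 129 CPM. Interneuron-like cells followed at 111, 96.8, 94.4 and 71.7 CPM, and oligodendrocyte lineage-like cells at 117, 68.9, 101 and 65.1 CPM. The ranges of the latter did not overlap with the next type, cluster 6, at 50.2 ± 15.1 CPM (SD, n = 4). Dll1 was near its lowest in the receptor-rich radial progenitor-like and astroglia-like cells, at 10.8 and 8.82 CPM, and at 5.51 CPM in cluster 16. Shares of cells with a UMI were taken after thinning to 1500 UMIs, which leaves out every cell below that depth. In cluster 5 this kept 77 of 573 cells in control 1, 72 of 94 in control 2, 333 of 447 in mutant 1 and 185 of 385 in mutant 2, so the shares describe the deeper cells, in unequal fractions by library. A Dll1 UMI was found in 24.7% of these cells of control 1 (19 of 77, exact Clopper-Pearson 95% interval 15.6 to 35.8%), 15.3% in control 2 (11 of 72, 7.88 to 25.7%), 15.6% in mutant 1 (52 of 333, 11.9 to 20%) and 11.4% in mutant 2 (21 of 185, 7.17 to 16.8%). Without thinning these shares were 23.7, 16, 28.6 and 23.4%, at median depths of 1036, 2168, 3536 and 1269 UMIs. Microglia-like cluster 16, which should lack Dll1, had at most 1 such cell per library after thinning, and its cluster medians lay between 3444 and 5604 UMIs. The genes most like Dll1 over types were Lrrtm2 (r = 0.77), Zfp521 (0.76) and Dll3 (0.76).

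Dll3, a divergent ligand that does not activate Notch on neighbouring cells and can block it within its own cell, lies on chr7:28293553-28302238 on the minus strand. It was high in cluster 5 (260, 142, 98.1 and 147 CPM), in the young neurons of cluster 2 (182, 112, 101 and 210 CPM) and in oligodendrocyte lineage-like cells (161, 60.6, 124 and 122 CPM). Control 1 was highest in 2 of these 3 types, and the ranges of all 3 overlapped. From Purkinje-like cells, at 25.9 ± 7.05 CPM (SD, n = 4), the level dropped with no overlap to cluster 13 at 10.1 CPM and on to radial progenitor-like cells at 5.84 CPM. Dll3 differed from Dll1 in cluster 11, where it stayed at 95.8, 48.1, 55.5 and 80 CPM, at rank 4 of its order, while Dll1 was at rank 10 of its own there. Gadd45g (r = 0.90), D16Ertd472e (0.87) and Ptpn4 (0.87) followed it most closely.

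Jag1, a Jagged-type ligand, lies on chr2:137081456-137116644 on the minus strand and was detected at low levels in progenitors and glia. Cluster 5 held 28, 76, 37.6 and 35.7 CPM and radial progenitor-like cells 20, 45, 27 and 28 CPM, with control 2 highest in both. Jag1 was at 2.31 CPM in Purkinje-like cells and 4.81 CPM in interneuron-like cells. Jag2, the other Jagged-type ligand, on chr12:112907819-112929776 on the minus strand, was highest in neurons among the types compared. It stood at 26.9, 9.62, 23.6 and 19 CPM in Purkinje-like cells and at 16.8, 16.1, 9.44 and 9.5 CPM in interneuron-like cells, with a mean of 0.35 CPM in cluster 5. The ranges of the 2 neuronal types overlapped, and in control 2 they rested on 1 Jag2 UMI in Purkinje-like and 2 in interneuron-like cells. Jag1 was followed most closely by Lpar4 (r = 0.93), Sox2ot (0.93) and Psmg2 (0.92), and Jag2 by Atp8a2 (0.96), Vav3 (0.96) and Dhx57 (0.95).

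Mfng, the Fringe enzyme Manic, adds sugar to the Notch extracellular domain and so alters which ligands it responds to; the gene lies on chr15:78755882-78773475 on the minus strand. It was highest in cluster 5 (39.2, 45.6, 49.1 and 79.1 CPM) and in granule lineage-like cells (45.1, 27.4, 53.9 and 48.8 CPM). Cluster 16 and oligodendrocyte lineage-like cells followed at 33.7 and 25.7 CPM, while radial progenitor-like cells were at 8.04 CPM and Purkinje-like cells at 2.03 CPM. No neighbouring pair in this order was separated beyond its range. Eef1akmt4 (r = 0.88), Ddx3y (0.88) and Rps18 (0.87) were nearest to it over types.

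Hes1 and Hes5, the repressors that carry out the Notch response, traced the receptor-expressing types. Hes1, on chr16:30064384-30067796 on the plus strand, was highest in astroglia-like cells at 152 ± 62.8 CPM (SD, n = 4), in cluster 13 at 137 ± 42.8 CPM, in radial progenitor-like cells at 124 ± 29.1 CPM and in oligodendrocyte lineage-like cells at 106 ± 44.6 CPM. These 4 overlapped, and the ranges separated from cluster 4 at 44.5 CPM. Cluster 5 was lower at 31.7 CPM and cluster 11 at 5.11 CPM.

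Hes5 was highest in radial progenitor-like cells at 526 ± 91.9 CPM (SD, n = 4), in astroglia-like cells at 509 ± 161 CPM and in cluster 13 at 496 ± 177 CPM. Oligodendrocyte lineage-like cells followed at 323 ± 59.4 CPM and cluster 5 at 233 ± 61 CPM, each overlapping its neighbours. Cluster 11 held 30.2 CPM, a level close to the 26 CPM of cluster 14 and the 17.1 CPM of cluster 16. Radial progenitor-like cells deep enough for thinning to 1500 UMIs were 301 of 1021, 52 of 102, 262 of 714 and 197 of 823. Of these, 50.2% had a Hes5 UMI in control 1 (151 of 301, exact 95% interval 44.4 to 56%), 32.7% in control 2 (17 of 52, 20.3 to 47.1%), 55% in mutant 1 (144 of 262, 48.7 to 61.1%) and 56.3% in mutant 2 (111 of 197, 49.1 to 63.4%). Without thinning the shares were 38.2, 37.3, 43 and 41.3%. In the microglia-like cluster 16, a type taken as the reference for cells that should lack Hes5, the thinned shares were 2.9, 3.39, 1.82 and 3.88% and the unthinned ones 11.8, 3.23, 3.33 and 12.5%. The source of these UMIs was not tested. Intervals cover counting error only.

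Hes1 and Hes5 followed each other over the 14 types with r = 0.97, and each followed Notch1 with r = 0.93. Correlations of Hes5 with the Delta ligands were 0.09 for Dll1 and -0.19 for Dll3. Outside the members, Fam181a, Tst and Klf15 were nearest to Hes1 (each 0.99) and Plpp3, Fabp7 and Ttyh1 nearest to Hes5 (each 0.98).

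Hes6, a Hes family member that is not induced by Notch and that favours neuronal differentiation, lies on chr1:91411483-91414038 on the minus strand and did not follow the other Hes genes. It was highest in cluster 5 (691, 968, 1081 and 999 CPM) and in granule lineage-like cells (529, 616, 833 and 584 CPM), which expressed the progenitor factor Atoh1. The granule lineage was separated without overlap from cluster 4 at 295 CPM and oligodendrocyte lineage-like cells at 267 CPM. Radial progenitor-like cells held 105 CPM and interneuron-like cells 98.7 CPM, so that the type richest in Hes5 was among the poorer ones in Hes6. Over types Hes6 correlated with Mfng (r = 0.65) and Dll3 (0.60) more than with Hes5 (0.18), and its closest genes were Tma16 (0.91), Rnf219 (0.88) and Tfdp2 (0.86).

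Cluster 5 held the receptor Notch1 and Hes5 together with the highest mean levels of Dll1 and Dll3, so ligand and effector were compared cell by cell there in the cells thinned to 1500 UMIs. Oligodendrocyte lineage-like cells also held all 4 transcripts. Among cells with a Dll1 UMI, Hes5 was found in 15.8% in control 1 (3 of 19, exact 95% interval 3.38 to 39.6%), against 31% of cells without one (18 of 58, 19.5 to 44.5%). In control 2 the shares were 18.2% (2 of 11, 2.28 to 51.8%) and 14.8% (9 of 61, 6.98 to 26.2%). Mutant 1 gave 9.62% (5 of 52, 3.2 to 21%) and 25.6% (72 of 281, 20.6 to 31.1%), and mutant 2 gave 23.8% (5 of 21, 8.22 to 47.2%) and 28% (46 of 164, 21.3 to 35.6%). Hes5 was thus less frequent in Dll1-positive cells in 3 of 4 libraries, by 8.02 percentage points on average (SD 9.33, n = 4), a difference smaller than its spread. The sign of this mean did not hold at a depth of 1000 UMIs, where the difference was +2.54 points. For Dll3 the mean difference was -4.94 points (SD 4.55, n = 4), with lower values in Dll3-positive cells in 3 of 4 libraries. The proneural gene Neurog2 was more frequent in Dll1-positive cells of all 4 libraries, for example in 63.2% against 43.1% in control 1 and 65.4% against 50.5% in mutant 1, with overlapping intervals in each library.

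**Figure D2:**
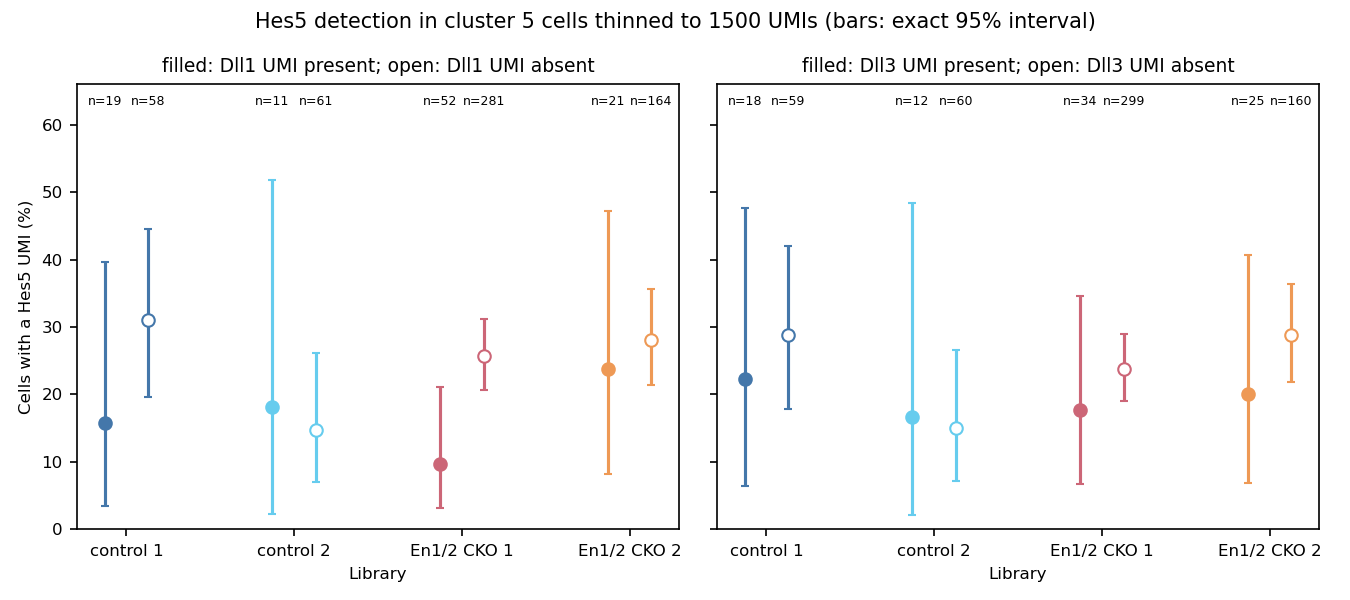
Share of cluster 5 cells with a Hes5 UMI, in percent, among cells with and without a Dll1 UMI and with and without a Dll3 UMI, per library after thinning to 1500 UMIs; bars are exact 95% intervals. In 3 of 4 libraries the ligand-positive cells lie lower for each ligand, and the intervals are wide because 11 to 52 cells per library carried Dll1.

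Genotypes were compared on counts summed per library with edgeR's quasi-likelihood test and Benjamini-Hochberg adjustment over all genes tested. No member passed the adjusted threshold of 0.05 in any cell type or in all cells. In the sum of all cells 0 of 10 members were called, beside 0% of 14628 genes, and 422 genes higher and 271 lower in the mutants had an unadjusted p under 0.05. DESeq2 called 52 genes there and no member. In Purkinje-like cells 0 of 5 tested members were called (0.0224% of 8936 genes), in interneuron-like cells 0 of 6 (0% of 8605), in radial progenitor-like cells 0 of 8 (0% of 10202) and in intermediate progenitor-like cells 0 of 9 (0% of 10054). DESeq2 called no member in these 4 classes. Members with an unadjusted p under 0.05 numbered 2, 1, 0, 0 and 3 in these 5 sums with edgeR. By that p, Hes1 and Hes5 ranked 44 and 286 of 14628 genes in all cells, and Dll1 ranked 154 of 8936 in Purkinje-like cells. Notch1, Dll1 and Dll3 ranked 67, 121 and 542 of 10054 in intermediate progenitor-like cells. Fitted fold changes are given for these members and for Notch2. In 11 other types and clusters, 0 of 64 pairs of member and type were called and 7 had an unadjusted p under 0.05. Of all genes, only cluster 2 had any called (0.0331% of 6038). The number of all genes at an unadjusted p under 0.05 is given for all cells only, so the member counts are not read as results. The difference of the genotype effect between radial progenitor-like and interneuron-like cells was called for 0 of 9 members, none at an unadjusted p under 0.05, beside 0.103% of 10658 genes. In data simulated at the observed spread of the radial progenitor-like sums, 14% of 100 genes with a 2-fold change and 87% of 100 with a 4-fold change were recovered, so most changes of 2-fold would be missed in that sum.

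**Figure D3:**
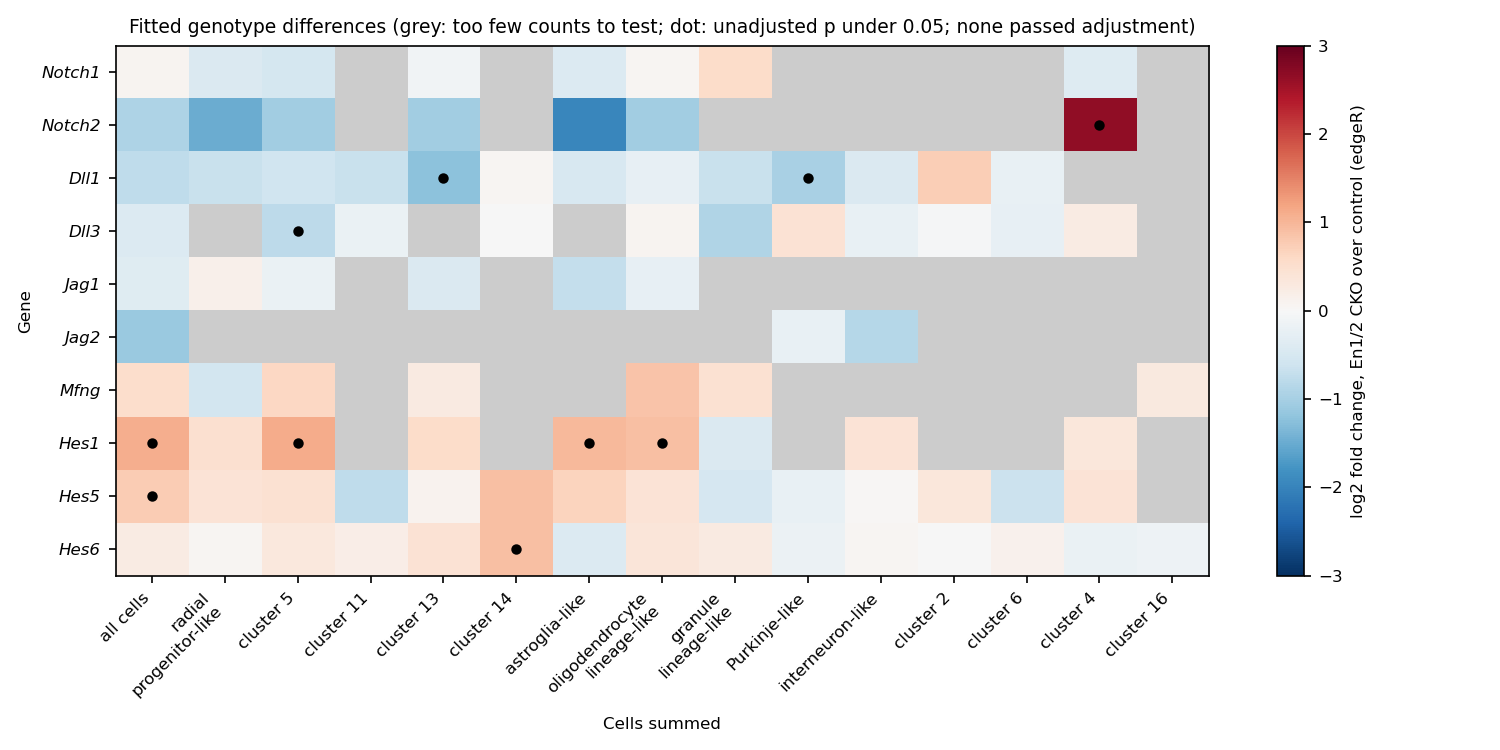
Fitted log2 fold change of each member, En1/2 CKO over control, by cell type (colour), with untested genes in grey and a dot where the unadjusted edgeR p was under 0.05. Hes1 is positive with a dot in all cells, astroglia-like, oligodendrocyte lineage-like and cluster 5 cells, and no cell passed after adjustment.

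Hes1 had both mutants above both controls in all cells and in 5 of the 14 types: radial progenitor-like, astroglia-like, oligodendrocyte lineage-like, cluster 5 and cluster 13. Of all genes tested, 18 to 23% had this order in each of these 5 types, which share the same 4 libraries. In cluster 13 Hes1 was 1 of 8 members, against 19.8% of genes. In all cells Hes1 stood at 31.2 and 37.1 CPM in controls against 79.3 and 72.9 CPM in mutants, so both mutants were above both controls. The fitted log2 fold change was 1.09 ± 0.21 (SE; edgeR adjusted p = 0.942). Without control 2 it was 1.25 and without control 1 it was 0.94. Each of these fits has 1 control library, which was assumed to vary like the mutants. Without either mutant it was 1.03 or 1.15. Both mutants lay above both controls for 5 of 10 members in all cells (Notch1, Mfng, Hes1, Hes5 and Hes6), against 22.8% of all genes tested, and below for none, against 12.1%. In such sums a different number of cells of a type and a different amount of RNA per cell cannot be told apart. Radial progenitor-like, astroglia-like, oligodendrocyte lineage-like and cluster 13 cells, the types rich in Hes1 and Hes5, made up 17.4 and 33.7% of cells in controls and 35.8 and 31.3% in mutants. Summed choroid plexus markers (6 genes, of which 5 were higher in both mutants) were at 16 and 11 CPM in controls against 13415 and 4496 CPM in mutants. Their part in the all-cell values was not tested.

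In astroglia-like cells Hes1 stood at 89.9 and 108 CPM in controls against 222 and 187 CPM in mutants, with no overlap (log2 fold change 0.98 ± 0.30, edgeR adjusted p = 0.875). Without control 2 the value was 1.11 and without control 1 it was 0.86. Cluster 15 made up 9.03 and 37.1% of these cells in controls and 37.7 and 17.4% in mutants, and Hes1 in the larger cluster 9 alone was 91.7 and 111 CPM against 251 and 186 CPM. In oligodendrocyte lineage-like cells the values were 72.2 and 71.6 CPM in controls against 166 and 115 CPM in mutants, again without overlap (0.90 ± 0.30, edgeR adjusted p = 1). In cluster 5 they were 25.2 and 10.1 CPM against 52.4 and 39 CPM (1.12 ± 0.41, edgeR adjusted p = 0.779), and the value was 2.12 without control 1. Control 2 lay there under the 15.2 CPM that 3 counts would give, and it was the only control behind the value of 2.12. Radial progenitor-like cells separated by a narrow margin, at 83.5 and 129 CPM against 153 and 130 CPM. Granule lineage-like cells had the reverse order at a low level, 16 and 19.2 CPM in controls against 15 and 9.52 CPM in mutants. Of 7 members tested in them, 2 (Dll1 and Hes1) were lower in both mutants, against 16% of genes, and 2 (Notch1 and Mfng) higher, against 17.6%. Thinning to 1500 UMIs kept 156 of 288, 78 of 97, 337 of 491 and 328 of 678 astroglia-like cells. The share of these with a Hes1 UMI was 12.2% (19 of 156, exact 95% interval 7.49 to 18.4%) and 19.2% (15 of 78, 11.2 to 29.7%) in controls, and 28.8% (97 of 337, 24 to 33.9%) and 24.1% (79 of 328, 19.6 to 29.1%) in mutants. Cluster 16 gave at most 2.9%, and unthinned astroglia-like shares were 14.2, 23.7, 45.4 and 28.2%.

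**Figure D4:**
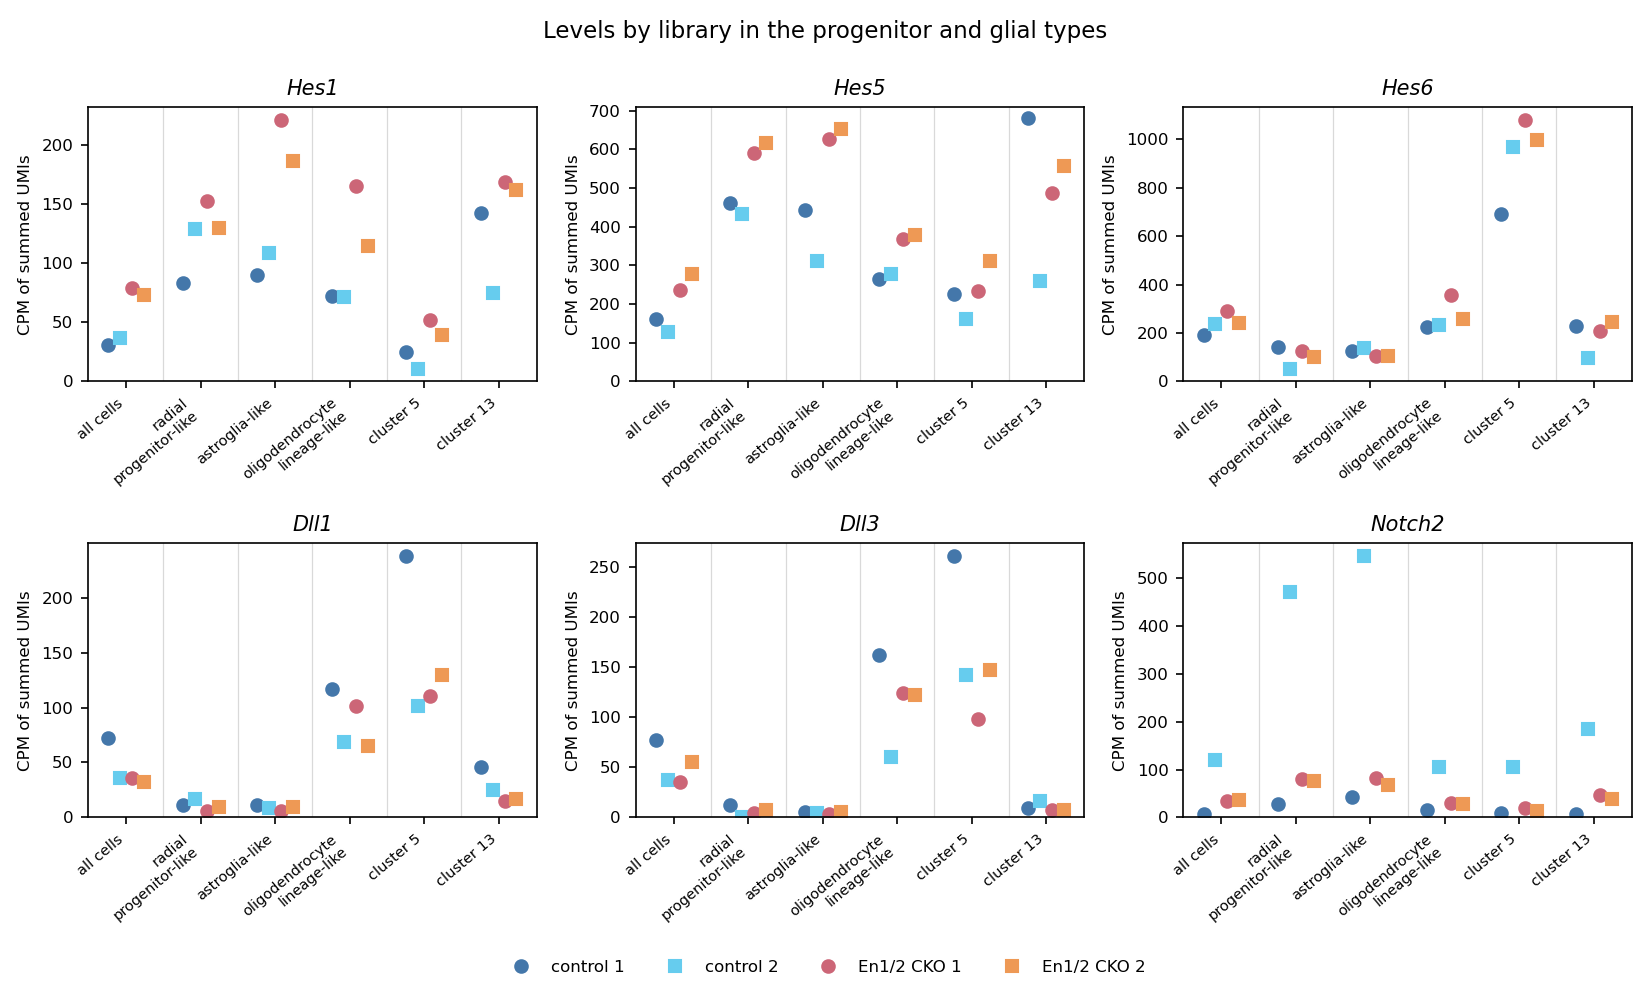
CPM of Hes1, Hes5, Hes6, Dll1, Dll3 and Notch2 in each of the 4 libraries, in all cells and in 5 types. Hes1 and Hes5 lie higher in both mutants in astroglia-like and oligodendrocyte lineage-like cells, and Notch2 is highest in control 2 in each type shown.

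Hes5 had smaller differences in the same types. All cells held 161 and 129 CPM in controls against 237 and 278 CPM in mutants (log2 fold change 0.75 ± 0.22, edgeR adjusted p = 0.942). Without control 1 the value was 0.91 and without control 2 it was 0.64. Radial progenitor-like cells held 462 and 433 CPM against 591 and 618 CPM, astroglia-like cells 444 and 313 CPM against 627 and 653 CPM, and oligodendrocyte lineage-like cells 266 and 278 CPM against 369 and 380 CPM. Both mutants lay above both controls in each of these 3 types, and none had an unadjusted p under 0.05. Cluster 13 did not show this order, with 682 CPM in control 1 above both mutants at 486 and 557 CPM. In the microglia- or macrophage-like class, which should lack Hes5, it stood at 30.5 and 8.79 CPM against 45.9 and 113 CPM, without overlap and as 1 of 4 members, against 15.6% of genes (log2 fold change 1.94 ± 0.58, edgeR adjusted p = 0.998). Without control 1 the value was 3.18, and without mutant 2 it was 1.13. Control 2 lay under the 13.2 CPM that 3 counts would give in this class, and it was the only control behind the value of 3.18. The class joins cluster 16 to cluster 17, which had 265 of its 284 cells in mutant 2, and in cluster 16 alone the groups overlapped, at 29.3 and 9.29 CPM against 7.24 and 22.5 CPM. In radial progenitor-like cells 2 of 8 members (Hes1 and Hes5) were higher in both mutants, against 18% of genes, and in astroglia-like cells 2 of 7, against 23%. Oligodendrocyte lineage-like cells gave 4 of 9 (Mfng, Hes1, Hes5 and Hes6), against 19.7%, and cluster 5 the same 4 genes of 9, against 19%. Members lower in both mutants numbered 1 of 8 in radial progenitor-like cells (Dll1), against 14.3%, and 1 of 9 in cluster 5 (Notch1), against 16.5%. Summed interneuron markers in these glial and progenitor types were lower in the mutants of some: in oligodendrocyte lineage-like cells 8 of 10 markers were below both controls in both mutants, with sums of 440 and 251 CPM in controls against 122 and 138 CPM in mutants. In radial progenitor-like cells 3 of 10 were, with 495 and 208 CPM against 140 and 218 CPM. Their part in the Hes values was not tested.

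Ligand and receptor values ran lower in the mutants in the intermediate progenitor-like class, at unadjusted p only. Notch1 stood at 134 and 64.2 CPM in controls against 45.9 and 44.1 CPM in mutants (log2 fold change -1.22 ± 0.29, edgeR adjusted p = 0.489). Dll1 stood at 185 and 72.9 CPM against 58.2 and 56.6 CPM (-1.25 ± 0.34, edgeR adjusted p = 0.489). For Dll3 the groups overlapped, at 220 and 102 CPM against 74 and 104 CPM (-0.90 ± 0.33, edgeR adjusted p = 0.508). Control 1 was far above the other 3 libraries for all 3 genes. Without it the values were -0.58, -0.41 and -0.28 for Notch1, Dll1 and Dll3. Without control 2 they were -1.5, -1.61 and -1.24. Each of these fits has 1 control library, and the share of all genes called in it is not given, so no call is read from it. Both mutants lay below both controls for 3 of 9 members (Notch1, Dll1 and Jag1), against 18.5% of genes, and above for Hes1 alone, against 20.3%.

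The make-up of this class differed between libraries. Cluster 11, which had little Notch1, was 14.2 and 38.2% of the class in controls and 50.1 and 51.3% in mutants. Within cluster 5, Notch1 was at 175 and 111 CPM in controls against 100 and 110 CPM in mutants, and Dll1 at 238 and 101 CPM against 110 and 129 CPM, neither with an unadjusted p under 0.05. Dll3 there had a log2 fold change of -0.79 ± 0.33 (edgeR adjusted p = 0.779), which was -0.31 without control 1 and -1.06 without control 2. The part of the cluster shares in the class values was not tested.

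Elsewhere Dll1 was also at lower values in mutants. In Purkinje-like cells it stood at 53.8 and 19.2 CPM in controls against 22.5 and 27.3 CPM in mutants, which overlap (log2 fold change -0.96 ± 0.40, edgeR adjusted p = 1). Without control 1 this value turned to 0.39, a fit whose only control, control 2, lay under the 28.9 CPM that 3 counts would give. Without control 2 the value was -1.12. In cluster 13 it stood at 45.4 and 25.1 CPM against 14.8 and 16.8 CPM, without overlap and as 1 of 8 members, against 15.8% of genes (-1.23 ± 0.43, edgeR adjusted p = 0.919), and the value was -0.70 without control 1. Interneuron-like cells placed both mutants below both controls for Dll1 and Jag2, 2 of 6 members tested, against 12.7% of genes. For Jag2 the control 2 value rested on 2 UMIs. Thinning kept 731 of 3485, 41 of 69, 107 of 591 and 75 of 854 interneuron-like cells. The share of these deeper cells with a Dll1 UMI was 14.8% (108 of 731, exact 95% interval 12.3 to 17.6%) in control 1, 9.76% (4 of 41, 2.72 to 23.1%) in control 2, 10.3% (11 of 107, 5.24 to 17.7%) in mutant 1 and 4% (3 of 75, 0.833 to 11.2%) in mutant 2. Unthinned shares were 12.6, 15.9, 10.3 and 7.38%. The control 2 interval covers the other 3 shares.

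Notch2 had no stable direction between genotypes in all cells or in radial progenitor-like and astroglia-like cells. Its log2 fold change was -0.92 ± 1.14 in all cells (edgeR adjusted p = 0.944), -1.48 ± 0.95 in radial progenitor-like cells (edgeR adjusted p = 0.98) and -1.96 ± 0.89 in astroglia-like cells (edgeR adjusted p = 0.875). Without control 2 these values were 2.11, 1.5 and 0.75, and without control 1 they were -1.87, -2.65 and -2.90. Hes6 was higher in both mutants in cluster 5, in oligodendrocyte lineage-like cells (223 and 231 CPM against 355 and 259 CPM) and in cluster 14, where it was 1 of 4 members, against 19.4% of genes (184 and 75.5 CPM against 199 and 272 CPM). In astroglia-like cells it was lower in both mutants, at 126 and 138 CPM against 104 and 104 CPM. Notch1 had the same order there, which makes 2 of 7 members, against 13.7% of genes. Hes6 lies on chromosome 1 with En1, so for it the mutation and DNA linked to the floxed allele cannot be told apart. In the haemoglobin-led cluster 4, Notch2 stood at 2.61 and 72.5 CPM in controls against 32.9 and 137 CPM in mutants, which overlap (log2 fold change 2.67 ± 0.99, edgeR adjusted p = 1). Control 1 and mutant 1 lay under the level that 3 counts would give there, 7.82 and 49.4 CPM. Without control 2 the value was 5.38, so it rests on the few counts of control 1. Haemoglobin in this cluster was at 73434, 43.5, 127177 and 5245 CPM, low in control 2, and mutant 2 held 1158 of its 1638 cells.

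The wider list of 57 pathway genes, which holds the members, had no called gene in any of the 5 sums with edgeR. In all cells 56 were tested, 22 with a positive and 34 with a negative fitted value and a median log2 fold change of -0.10, and 2 had an unadjusted p under 0.05. In the intermediate progenitor-like class 46 were tested, 11 positive and 35 negative, with a median of -0.35 against -0.04 over all genes, and 10 had an unadjusted p under 0.05. The share of all genes at that p in this class is not given, so these 10 are not read as a result about the pathway. The transcriptional corepressor Tle4 stood there at 165 and 300 CPM in controls against 95.4 and 84.5 CPM in mutants, with no overlap. The ubiquitin ligase Itch stood at 152 and 152 CPM against 93.3 and 96.7 CPM, and the presenilin Psen2 at 7.41 and 2.92 CPM against 14.9 and 13.7 CPM, both without overlap. Lunatic fringe, Lfng, stood at 59.3 and 17.5 CPM against 17.8 and 20.2 CPM, and Notch3 at 21.2 and 5.83 CPM against 5.56 and 7.68 CPM, with control 1 alone high in each. For Psen2 and Notch3, control 2 lay under the 8.75 CPM that 3 counts would give in this class. Purkinje-like cells had 18 positive and 21 negative values, of which 2 had an unadjusted p under 0.05: Dll1 and the corepressor Tle1 (130 and 57.7 CPM against 233 and 152 CPM). Interneuron-like cells had 21 positive and 17 negative values and radial progenitor-like cells 17 and 27, none at an unadjusted p under 0.05. In all cells the neuronal ligand Dner stood at 438 and 143 CPM in controls against 157 and 177 CPM in mutants, and the gamma-secretase subunit Ncstn at 83.6 and 48.9 CPM against 45.8 and 46.1 CPM. For Dner the groups overlapped, and for Ncstn they did not.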

How the data were processed

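Pools of tdTomato-positive cells, 2 control and 2 En1/2 CKO, were profiled with 10x 3' v3.1 chemistry, per the labels' protocols. The matrices deposited by the authors hold unnormalized UMI counts for each gene and barcode. Per the file headers and the submitters' processing notes, Cell Ranger 6.1.0 and mm10 were used. The other deposited files hold barcodes and gene names as text. Whether intron reads were counted is not given in the sources used here.

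A barcode was kept with 500 or more genes and no more than 10% of UMIs from mitochondrial genes. Scrublet marked doublets; in a library where it marked under 0.5%, the top-scoring cells were removed, at 0.8% for every 1000 barcodes. Each cell was scaled to 10000 counts before a log transform. The 2000 most variable genes, without the 57 Notch pathway genes, were reduced to 30 components, joined to 15 neighbours and clustered by Leiden (resolution 1, scanpy 1.11.5, Python 3.11.15). A cluster was named when at least 3 markers of a list were raised at least 1.5-fold. Cluster 4 was led by haemoglobin without raised Alas2, and was left unnamed, and the dividing clusters 13 and 14 were kept apart; both choices were made after seeing the data. Cells were not replicates: counts were summed per library and type, with at least 20 cells in every library, and tested with edgeR 4.0.16 in R 4.3.3 (TMM, filterByExpr, quasi-likelihood, 2-sided, Benjamini-Hochberg threshold 0.05). DESeq2 1.42.0 was an alternative. The procedure was tested on simulated data. Library totals of 5305154 to 21021428 UMIs set the precision. Shares used cells thinned to 1500 UMIs, without the shallower cells, with exact Clopper-Pearson 95% intervals, which cover counting error only.

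All 10 members are named. Pathway genes past the threshold were to be named, filled to 10 per class by the smallest unadjusted p among genes averaging 10 CPM or more in a genotype; of these the text gives a few. Fitted fold changes are given for members with an unadjusted p under 0.05 in the sum described, for Notch2 in 3 sums, and for members whose groups separated in opposite directions in 2 types, whatever their p. For likeness, the 3 genes with the highest Pearson correlation were taken among genes with at least 20 CPM in 1 type. Members, lists and tests were chosen with earlier results of these data known. Other settings were DESeq2, RLE size factors, all genes without a filter on low counts, a replicate block, each library left out, a tighter filter on cells (1000 genes and 5% mitochondrial UMIs), retained doublets, Leiden resolution 2, pathway genes eligible for clustering, levels as means over cells, and thinning to 1000 UMIs or none. Cells with at least 2000 UMIs, cluster 4 left out and a crossed block were added after seeing the data. Gene positions are from the GENCODE annotation of GRCm38.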

Additional observations from a re-analysis of the deposited data

Results flagged for a closer look

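Some members had both mutants above both controls in one type and below them in another, and these differences between types were not tested. For Notch1, the log2 fold change was 0.55 in granule lineage-like cells and -0.52 in cluster 5, a difference of 1.07. For Hes1 it was 1.12 in cluster 5 and -0.44 in granule lineage-like cells, a difference of 1.57. The Hes1 level of control 2 in cluster 5 was under the 15.2 CPM that 3 counts would give. For Hes6 the log2 fold change was 0.89 in cluster 14 and -0.41 in astroglia-like cells, a difference of 1.31.

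Choroid plexus-like cells, led by Ttr and Folr1, entered no comparison because they were kept in the mutant libraries only, 68 in mutant 1 and 21 in mutant 2. Notch2 stood there at 108 CPM in mutant 1 (78 UMIs) and at 102 CPM in mutant 2 (24 UMIs).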

How the results depend on the processing

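With all 4 libraries, no member was called in any of the 5 sums under RLE size factors, DESeq2, the stricter cell filter, Leiden resolution 2, pathway genes eligible for clustering, doublets kept or cells with at least 2000 UMIs. The exception was the intermediate progenitor-like sum with no low-count filter, where 5 pathway genes including 3 members (Notch1, Notch2 and Dll1) were called; 16784 genes were tested there in place of 10054, and the cause was not tested. The replicate numbers could not be shown to pair libraries: the correlation of same-numbered deviations ran from -0.29 to 0.08 over all sums and clusters tested. With the replicate block 0 members were called in each of the 5 sums, and the Notch2 all-cell log2 fold change was 0.074 in place of -0.92; the crossed block gave 0.069. Genes called with the block were 117, 2, 2, 0 and 1 in the order all cells, Purkinje-like, interneuron-like, radial and intermediate progenitor-like, and with the pairing crossed 0, 7, 12, 14 and 1, against 0, 2, 0, 0 and 0 without a block. Without a low-count filter they were 0, 21, 17, 37 and 171, and with DESeq2 52, 2, 0, 1 and 2.

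Leaving out 1 library changed most. A fit without control 1 or control 2 has 1 control library, which was assumed to vary like the mutants. The share of all genes called in each such fit is not given. The counts of pathway genes, members and pairs called in these fits are therefore not read as results about the pathway. Pathway genes called ranged from 0 to 16 in all cells (members 0 to 5) and 0 to 1 in Purkinje-like cells (0 to 1). They ranged from 0 to 2 in interneuron-like (0 to 2) and 0 to 2 in radial progenitor-like cells (0 to 1). In intermediate progenitor-like cells they ranged from 0 to 14 (members 0 to 4). For the other types the count was of pairs of member and type, and it ranged from 0 to 11. The nonzero counts all came from fits without control 1 or control 2, as did 1160 and 2581 genes called in all cells, against 10 and 48 without a mutant. Notch2 log2 fold changes ranged from -1.87 to 2.11 in all cells, -2.65 to 1.5 in radial progenitor-like and -2.90 to 0.75 in astroglia-like cells. Those of Dll1 ranged from -1.12 to 0.39 in Purkinje-like cells. The positive Notch2 values were without control 2. The positive Dll1 value was without control 1, where control 2, the only control left, lay under the 28.9 CPM that 3 counts would give. The count of members higher in both mutants was 6 to 7 in all cells, 4 in radial progenitor-like cells, 2 to 3 in astroglia-like cells, 6 in oligodendrocyte lineage-like cells and 5 to 6 in cluster 5 when 1 control was left out. Leaving out a control can only keep or raise this count, for members and for all genes, so these values do not show stability. The matching shares of all genes are not given. The type of highest level stayed the same for 9 to 10 of 10 members when a library was left out, and for 8 with means over cells. Dll1 and Hes5 co-detection differed by -11.8 to -5.35 points when a library was left out, and by 2.54 points at 1000 UMIs. For Dll3 the values were -7.15 to -3.67 points, -12 points at 1000 UMIs and -10.7 points without thinning. Jag2 and Jag1 were near the floor of 3 counts per library in several types, which limits what their levels can show.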
